A study of Mus musculus with 4 samples.

Results

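The genes of Toll-like receptor and NF-kB signaling were followed in reconstituted ovaries (rOvaries) of mice given INK128, an inhibitor of the mTOR kinase, or no INK128. The members were 52 of the 54021 gene symbols in the count table, chosen by name. They were all symbols made of Tlr, Irak or Traf and a digit, plus a fixed set of adaptors, kinases, NF-kB subunits and inhibitors. By role they were 12 receptors, 5 adaptors, 4 IRAK kinases, 7 TRAF proteins, 5 genes of the TAK1 and RIPK1 complexes, 5 IKK kinase genes, 5 NF-kB subunits, 5 inhibitors and 4 binding partners that matched by name only (Irak1bp1, Traf3ip1, Traf3ip2 and Traf3ip3). Poly(A) RNA was sequenced from 2 INK128-treated rOvaries (replicates 1 and 2) and 2 controls (replicates 1 and 3). Each rOvary was an aggregate of primordial germ cells and gonadal somatic cells from female fetal gonads of C57BL/6 mice with an actin-GFP transgene. It was grafted under the kidney capsule of a bilaterally ovariectomized G2 Terc-/- C57BL/6 female of 10 weeks on average and collected 4 weeks later. G2 Terc-/- mice are second-generation telomerase-deficient animals, and recipients of both groups lacked Terc. INK128 was given in the drinking water at 30 μM by the study's methods, and the labels give a dose of 0.75 μM per g. Donor fetal cells and cells of the host, kidney and blood included, are both in such a graft. The labels do not say whether the replicates of a group came from separate animals, so that p-values measure only the spread between these libraries.

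Toll-like receptors sense molecules of microbes and of damaged cells. On ligand binding they recruit adaptors with TIR domains, which pass the signal to IRAK kinases, to the ubiquitin ligase TRAF6 and to the kinase TAK1. The IKK complex then marks the IkB proteins for destruction, which frees NF-kB dimers to enter the nucleus and switch on cytokine, adhesion and survival genes. Several of these targets, among them the IkB proteins and A20, shut the signal off again. In the ovary the receptors are best known from resident macrophages, and they are also described in granulosa and cumulus cells.

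NF-kB dimers bind a short DNA element, and some members carry it in their own promoters, which is why those promoters are shown. RefSeq promoter windows (GRCm38.p6, from 250 bases before to 50 bases after a start site) were found for 43 of the 52 members and searched on both strands for a kB-type motif, GGGA and TTTCC with 1 free base between them. The motif stood in the windows of 4 of the 43 members (9.3%), Nfkbia, Nfkb2, Tlr3 and Map3k7, and in those of 126 of all 27025 genes (0.466%). These 4 genes are of different roles (an inhibitor, a subunit, a receptor and a kinase). Each window is printed along the strand of its gene, with the match in capitals.
Nfkbia, chr12:55492598-55492897, minus strand: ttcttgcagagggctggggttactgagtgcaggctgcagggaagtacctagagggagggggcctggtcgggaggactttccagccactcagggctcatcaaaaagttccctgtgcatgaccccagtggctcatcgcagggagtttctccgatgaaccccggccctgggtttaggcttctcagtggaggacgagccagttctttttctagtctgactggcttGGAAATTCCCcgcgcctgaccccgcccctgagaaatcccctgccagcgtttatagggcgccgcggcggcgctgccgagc
Nfkb2, chr19:46305445-46305744, plus strand: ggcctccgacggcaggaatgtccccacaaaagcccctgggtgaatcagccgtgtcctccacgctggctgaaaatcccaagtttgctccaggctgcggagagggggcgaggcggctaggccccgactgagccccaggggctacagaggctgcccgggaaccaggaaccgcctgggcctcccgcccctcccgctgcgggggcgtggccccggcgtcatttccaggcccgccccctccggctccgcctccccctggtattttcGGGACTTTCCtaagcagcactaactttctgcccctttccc
Tlr3, chr8:45410331-45410630, minus strand: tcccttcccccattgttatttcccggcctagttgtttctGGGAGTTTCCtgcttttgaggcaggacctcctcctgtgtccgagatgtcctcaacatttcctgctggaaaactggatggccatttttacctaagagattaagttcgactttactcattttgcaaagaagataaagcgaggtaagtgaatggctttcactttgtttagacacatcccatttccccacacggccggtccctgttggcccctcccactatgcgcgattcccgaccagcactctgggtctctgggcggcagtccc
Map3k7, chr4:31963857-31964156, plus strand: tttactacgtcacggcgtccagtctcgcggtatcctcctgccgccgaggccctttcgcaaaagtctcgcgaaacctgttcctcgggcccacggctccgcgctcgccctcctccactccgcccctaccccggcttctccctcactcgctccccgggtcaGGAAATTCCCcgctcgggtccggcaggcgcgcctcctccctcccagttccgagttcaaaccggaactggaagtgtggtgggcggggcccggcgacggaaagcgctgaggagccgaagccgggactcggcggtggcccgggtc
Counted from the start site as 0, the match began at −29 in Nfkbia, −211 in Tlr3, −92 in Map3k7 and 10 in Nfkb2. Another annotated start site of Nfkb2 shares the same match, at −225. A match is a description of the letters only. The 4 genes did not share a pattern of expression. Both INK128-treated rOvaries were below both controls for Tlr3 and Map3k7, and the groups overlapped for Nfkbia and Nfkb2.

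Total counts were 19130209 to 23029089 per library. The floor of 3 counts, a limit for counting error alone, was 0.127 to 0.161 CPM. The INK128 libraries resembled each other (Pearson r = 0.98 across genes) more than the controls did (0.806), and 13.8% of genes differed by more than 2-fold between the controls. Control replicate 1 held 1021 counts of 4 Y-linked genes, against 2 counts or fewer in each of the other libraries, and a Sertoli marker sum of 1656 CPM against 48.5 to 134 CPM. Control replicate 3 had an oocyte marker sum of 30.6 CPM, against 882 to 1273 CPM in the other libraries, and a kidney marker sum of 1549 CPM. Oocyte markers were thus nearly absent from control replicate 3, and control replicate 1 held Y-linked and Sertoli transcripts although the study's methods describe the donor gonads as female. The part of these differences in the control values was not tested. None of the 34 members with a mean above 10 CPM differed by more than 2-fold between the controls or between the INK128-treated rOvaries.

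A single member, Irak4, fell past the test with INK128, and most of the others had negative fold changes that did not pass it. Of the 34 members with a mean above 10 CPM (counts scaled to library size with TMM factors), 23 had a negative and 11 a positive log2 fold change (log2FC, INK128 over control). Both INK128-treated rOvaries lay below both controls for 19 of the 34 (34% of all 11758 genes tested) and above both for 5 (34.5% of all genes). The median log2FC was −0.48 for the 34 members and −0.03 for all genes tested. edgeR with Benjamini-Hochberg adjustment, with calls set at adjusted p under 0.05 and over 1.5-fold, called 1 of the 34 members lower (2.94%, background 3.19%) and 0 higher (background 3.18%). At an unadjusted p below 0.05 in edgeR, 15 were lower (18.7% of all genes) and 3 were higher (17.7%). DESeq2 with the same thresholds called 9 lower (15.1% of all genes) and 1 higher (13.6%). The lower ones were Irak4, Tirap, Rel, Traf3, Traf6, Ripk1, Tab3, Ikbkg and Nfkbie, and the higher one was Irak2. Tirap, Rel and Nfkbie, and also Tlr3, passed the filter of 10 CPM only through the controls. Without control replicate 1 edgeR called 12 members lower and 4 higher, where 23.2% and 22.7% of all genes were called. Without control replicate 3 it called 12 lower and 3 higher, against 21.4% and 21.2% of all genes. In both of these runs the lone control is assumed to vary like the INK128 pair. Without INK128 replicate 1, and likewise without INK128 replicate 2, no member was called, nor was any other gene. The plot of fold changes gives every tested member in order of role.

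**Figure D1:**
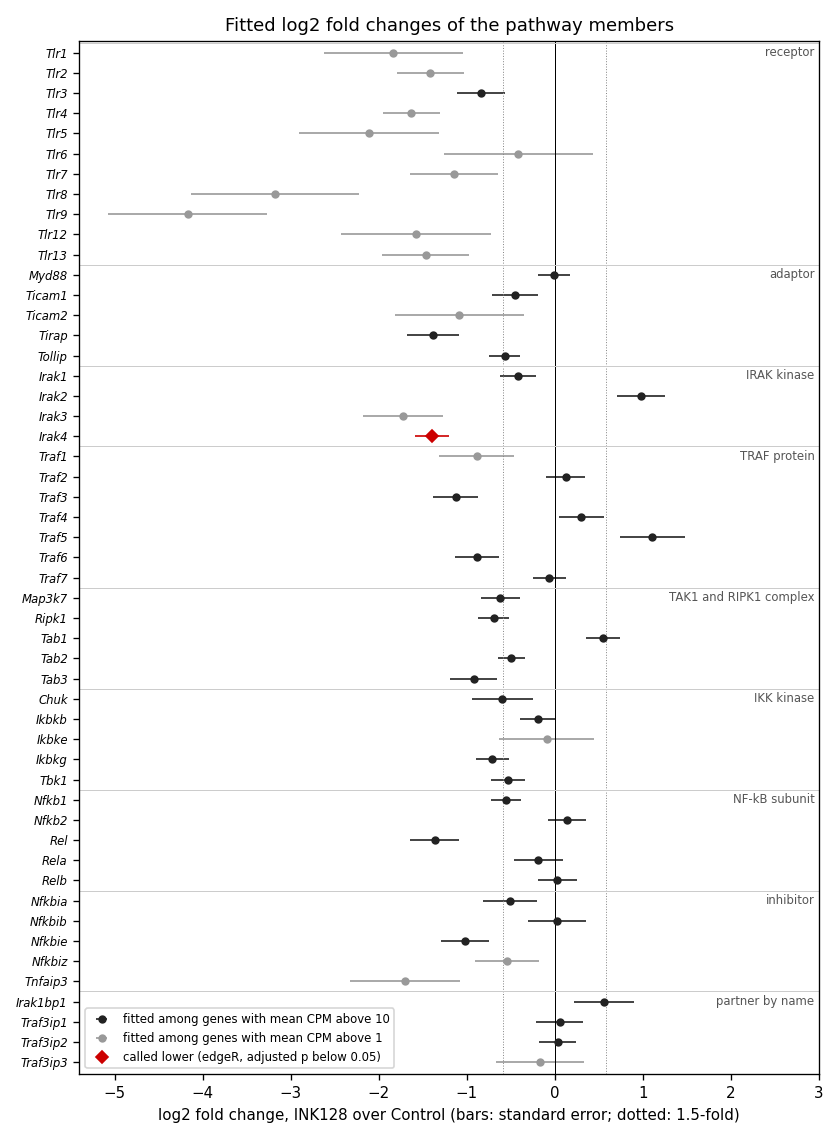
Fitted log2FC of 51 members, INK128 over control, on the horizontal axis (points, edgeR; bars, standard error, SE), with 1 gene per line grouped by role. Negative values (lower with INK128) prevail in most roles, Irak4 (red diamond) alone passes the test, and Irak2, Traf5 and Tab1 lie on the positive side.

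The receptors were scarce in these grafts, and edgeR called none of them under either filter (10 or 1 CPM). With no filter edgeR called 3 lower, Tlr4 (adjusted p = 0.0366), Tlr8 (0.0479) and Tlr9 (0.0107), where 6.2% of all 31483 genes were called lower. Of the 12, only Tlr3 had a mean above 10 CPM, 10 were between 1 and 10 CPM as scaled by library totals for the filter (the Tlr5 mean was 0.989 CPM with TMM factors), and Tlr11, with 3 and 2 counts against 7 and 17, was not tested. Both INK128-treated rOvaries lay below both controls for 10 of the 12 receptors and above both for 0, and the groups overlapped for Tlr6 and Tlr12. The log2FC of Tlr6, −0.42, was 0.73 without control replicate 3. Among all 17631 genes with a mean above 1 CPM, 35.3% lay on the lower side in this way and 30.9% on the higher side. In this wider set edgeR called 0 receptors and 0 of all genes in either direction (0%), its smallest adjusted p being 0.0555. DESeq2 called 4 receptors lower, Tlr2, Tlr4, Tlr8 and Tlr9 (13.6% of all genes), and 0 higher (10.2%). Tlr5, Tlr8 and Tlr9 passed the filter of 1 CPM only through the controls. Of the 11 tested receptors, 7 had an unadjusted p below 0.05 in edgeR and a negative fold change (17.8% of all genes in the wider set). In bulk tissue fewer cells of a type and less RNA per cell cannot be told apart.

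Tlr4 recognizes bacterial lipopolysaccharide together with Cd14 and Ly96. It gave 69 and 75 counts (3.70 and 3.45 CPM) in the INK128-treated rOvaries against 247 and 286 counts (10.9 and 12.1 CPM) in controls. The libraries of each group stood close together and the groups were far apart, with a log2FC of −1.63 (SE 0.33, adjusted p = 0.0612, edgeR). Tlr2, which senses bacterial lipoproteins as a dimer with Tlr1 or Tlr6, was at 3.86 and 3.17 CPM against 8.23 and 11.3 CPM (log2FC −1.42, adjusted p = 0.0848, edgeR). Its partner Tlr1 was at 1.13 and 0.874 CPM against 1.64 and 5.78 CPM, so that control replicate 3 alone was high. The Tlr1 log2FC of −1.83 was −0.66 without that library. Tlr1 and Tlr6 are close paralogs. Reads that could come from either were not measured, so the values of both may be uncertain. Tlr5, the receptor for flagellin, gave 10 and 4 counts against 34 and 41 (log2FC −2.11, adjusted p = 0.148, edgeR). It was −3.06 without INK128 replicate 1 and −1.54 without INK128 replicate 2.

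The receptors of endosomes sense nucleic acids. Tlr3, for double-stranded RNA, was at 7.14 and 7.22 CPM against 12.6 and 13.1 CPM. The replicates nearly coincided in both groups, and its log2FC was −0.84 (SE 0.27, adjusted p = 0.107, edgeR). Tlr9, for unmethylated CpG DNA, was almost absent from the INK128-treated rOvaries, with 3 and 5 counts against 39 and 138 in controls. In CPM these were 0.161 and 0.23 against 1.73 and 5.82, the first at the floor of 3 counts. The Tlr9 log2FC of −4.17 (SE 0.91, adjusted p = 0.0657, edgeR) was −3.04 without control replicate 3 and −4.79 without control replicate 1. Tlr8 and Tlr7 are neighbouring genes on the X chromosome that respond to single-stranded RNA. Tlr8 gave 8 and 2 counts against 38 and 77 (log2FC −3.18, adjusted p = 0.102, edgeR), with the second library under the floor. It was −4.62 without INK128 replicate 1 and −2.46 without INK128 replicate 2. Tlr7 differed less, at 2.04 and 1.66 CPM against 3.32 and 5.19 CPM (log2FC −1.15). Tlr13, a mouse receptor for bacterial ribosomal RNA, was at 2.15 and 1.56 CPM against 4.21 and 6.45 CPM (log2FC −1.47). Tlr12, which takes part in sensing profilin of protozoa, overlapped between the groups, at 3.33 and 1.29 CPM against 2.97 and 11.3 CPM. Its log2FC of −1.58 was −0.32 without control replicate 3, −2.42 without INK128 replicate 1 and −2.25 without control replicate 1. A run without a control takes the lone remaining control to vary like the INK128 pair. Calls in such runs thus leave out the spread between the controls. When a control was left out, edgeR called 9 receptors of the 1 to 10 CPM range lower without replicate 1, where it called 23.4% of all genes of the wider set lower. Without replicate 3 it called 5 of them (Tlr2, Tlr4, Tlr5, Tlr8 and Tlr9, all among the 9), against 21.5% of all genes.

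**Figure D2:**
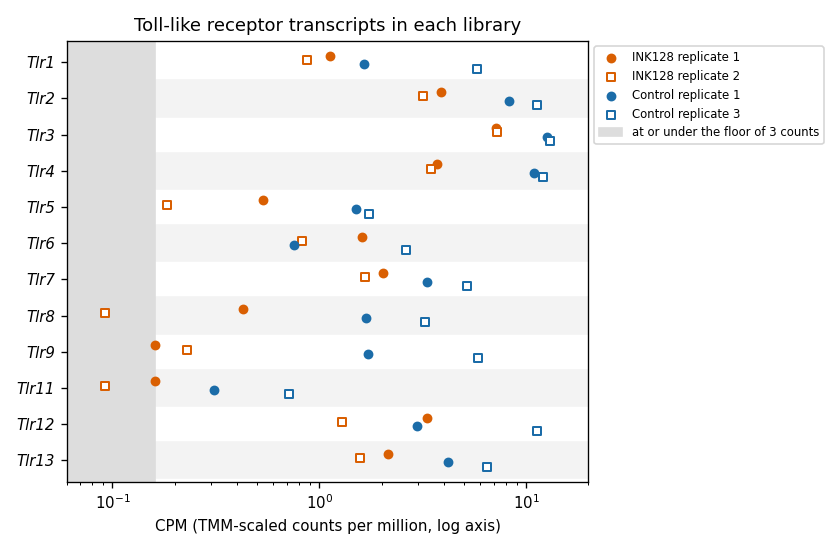
CPM of the 12 Toll-like receptor genes in each library (log axis; orange, INK128; blue, control; circles, replicate 1; squares, INK128 replicate 2 or control replicate 3; grey, at or under 3 counts). Orange points lie to the left of blue ones for 10 of the 12 genes, most widely for Tlr9, and control replicate 3 is far to the right for Tlr1 and Tlr12.

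Markers of macrophages and monocytes, cells rich in these receptors, had lower sums with INK128. The summed level of the 18 markers was 540 and 520 CPM in the INK128-treated rOvaries against 820 and 993 CPM in controls. Both INK128 libraries were below both controls for 13 of the 18 (34% of all genes above 10 CPM and 35.3% of those above 1 CPM). DESeq2 called 8 of them lower, all among the 15 above 10 CPM (53.3%, background 15.1%), and edgeR 0. Among these 15, Ptprc, Adgre1, Itgam and Spi1 passed the filter only through the controls. Lymphocyte markers summed to 12.5 and 11.8 CPM against 18.5 and 55.3 CPM, and neutrophil markers to 2.74 and 2.16 CPM against 1.15 and 5.15 CPM, with 5 of the 6 neutrophil markers at a mean under 1 CPM. Kidney markers stood at 94.6 and 197 CPM against 681 and 1549 CPM, and 13 of the 15 were lower in both INK128 libraries (34% and 35.3% of all genes, as above). edgeR called 5 of the 12 kidney markers above 10 CPM lower (41.7%, background 3.19%), and DESeq2 called 11 of these 12 (91.7%, background 15.1%). Several of them passed that filter only through the controls, such as Umod (7 and 11 counts against 137 and 1297) and Cubn (15 and 29 against 325 and 706). The 12 receptors summed to 26.3 and 20.7 CPM against 49.9 and 79.2 CPM. Set against the macrophage sum of the same library, that was 4.87% and 3.97% against 6.08% and 7.98%, still lower with INK128. The order of the groups depended on the receptor and the marker. Per 100 counts of Csf1r, Tlr4 gave 6.35 and 8.23 counts against 11.4 and 11.4, whereas per 100 counts of Ptprc it gave 47.3 and 50 against 116 and 25.8, so that the INK128 libraries then lay between the controls. Per 100 counts of Csf1r, Tlr9 gave 0.276 and 0.549 counts against 1.80 and 5.52, and per 100 counts of Ptprc 2.05 and 3.33 against 18.3 and 12.4, lower with INK128 either way, as Tlr8 was. Tlr7 overlapped even per 100 counts of Csf1r, at 3.50 and 3.95 against 3.46 and 4.92. These ratios were chosen after the values had been seen, and the part of other cell types in the receptor values was not tested.

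The adaptors differed among themselves. Myd88, which all receptors but Tlr3 can use, had nearly equal CPM in all libraries, and Tirap, which bridges Tlr2 and Tlr4 to it, was lower in both INK128 libraries. Myd88 was at 32.5 and 32.6 CPM with INK128 and at 33.4 and 32.1 CPM in controls, with a log2FC of −0.01 (SE 0.18, adjusted p = 0.977, edgeR). The sign of this value turned under other filters, and it was −0.38 with length offsets. Tirap, on chromosome 9 of mm10 from 35184551 to 35200291 (minus strand), was at 6.87 and 6.12 CPM against 15.0 and 19 CPM, with no overlap. The log2FC was −1.39 (SE 0.30, adjusted p = 0.0563 in edgeR and 0.00297 in DESeq2). Tirap passed the filter of 10 CPM only through the controls. In the GENCODE annotation an antisense gene, Gm39318, overlaps 9.05% of the Tirap exons, and since no source states that counting used strand, reads of the 2 genes cannot be told apart there. Tollip, an adaptor that dampens IRAK signaling, was at 68.2 and 57.7 CPM against 93.8 and 93.3 CPM (log2FC −0.57, adjusted p = 0.0963, edgeR). Ticam1, the adaptor of Tlr3, had a log2FC of −0.46, which was −0.22 without control replicate 1 and −0.66 without control replicate 3. Ticam2, which joins Ticam1 to Tlr4, was at 1.45 and 0.598 CPM against 1.59 and 2.91 CPM, with a log2FC of −1.09 that was −1.86 without INK128 replicate 1, −0.59 without INK128 replicate 2 and −0.60 without control replicate 3. It shares 14.5% of its exon bases with Tmed7 on the same strand.

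The IRAK family held the only member that passed the test and the only one that DESeq2 called higher. Irak4 is the first kinase of the MyD88 complex and activates the others. It lies on chromosome 15 from 94543643 to 94581815 (plus strand). With INK128 it was at 15.8 and 16.0 CPM, against 42.4 and 41.6 CPM in controls. The replicates differed by little in either group, and the groups were far apart. Irak4 thus fell by 1.40 on the log2 scale, or 2.64-fold (SE 0.19, adjusted p = 0.0464 in edgeR and 1.56e-06 in DESeq2). Its log2FC stayed between −1.52 and −1.34 in every alternative run, while its edgeR adjusted p was 0.381 without INK128 replicate 1, 0.438 without INK128 replicate 2, 0.0555 with a filter of 1 CPM and 0.0765 with length offsets. With limma voom the adjusted p was 0.0599. Twf1 overlaps 7.87% of the Irak4 exons on the opposite strand.

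Irak2, a kinase that sustains the response after Irak1 has been used up, lay on the other side. It was at 27.5 and 29.4 CPM with INK128 against 12 and 16.9 CPM in controls. Both INK128 libraries were above both controls, with a log2FC of 0.98 (SE 0.27, adjusted p = 0.0816 in edgeR and 0.027 in DESeq2). Irak2 was shown by library after its values had been seen, since DESeq2 called it. Irak1, the most abundant of the family per kilobase of exon (41.7 TPM, a CPM divided by exon length and rescaled), was at 62.0 and 77.1 CPM against 85.4 and 100.5 CPM (log2FC −0.42, adjusted p = 0.204, edgeR). Irak3, also called IRAK-M, holds the complex back and is typical of macrophages. It was at 1.93 and 2.25 CPM against 8.85 and 5.57 CPM, and its log2FC of −1.73 had an adjusted p of 0.0826 in edgeR and 0.0232 in DESeq2.

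TRAF proteins, the ubiquitin ligases and scaffolds below the receptors, had log2FC values of either sign. edgeR called 0 of the 7 (3.19% of all genes were called lower), and DESeq2 called 2 lower, Traf3 and Traf6 (15.1% of all genes). Traf3, which serves type I interferon induction and restrains the NIK kinase, was at 22.9 and 17.7 CPM against 49.7 and 39.0 CPM. The groups did not overlap, and its log2FC was −1.13 (SE 0.25, adjusted p = 0.0594 in edgeR and 0.00388 in DESeq2). With offsets for exon length it was −0.84. Traf6, the ligase that passes the signal from IRAK kinases to TAK1, had a log2FC of −0.89 (adjusted p = 0.0836 in edgeR and 0.0304 in DESeq2), which was −0.54 with length offsets. Traf5, a scaffold of tumor necrosis factor receptors, was by contrast at 18.8 and 21.4 CPM against 6.73 and 11.9 CPM. It passed the filter of 10 CPM only through the INK128-treated rOvaries. Its log2FC was 1.11 (SE 0.37, adjusted p = 0.113 in edgeR and 0.0595 in DESeq2). It was 0.76 without control replicate 1 and 1.58 without control replicate 3. Traf4 was at 55.9 and 53.6 CPM against 35.6 and 53.2 CPM, so that control replicate 1 alone was low. The Traf4 log2FC of 0.30 was 0.04 without control replicate 1 and 0.62 without control replicate 3. Traf7, a regulator of stress kinases, was at 72.3 and 77.2 CPM against 70.1 and 86.4 CPM, with overlap (log2FC −0.07). Traf1 and Traf2 had log2FC values of −0.89 and 0.12.

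In the TAK1 and RIPK1 group, Map3k7 (the kinase TAK1), Tab2, Tab3 and Ripk1 had negative log2FC values and Tab1 a positive one. edgeR called 0 of these 5 genes (3.19% of all genes lower). DESeq2 called 2 lower, Ripk1 and Tab3, and 0 higher (15.1% and 13.6% of all genes). Map3k7 was at 55.6 and 66.3 CPM against 80.2 and 106.9 CPM (log2FC −0.62, adjusted p = 0.126, edgeR). Tab2 was at 99.1 and 97.1 CPM against 136.5 and 139.9 CPM (log2FC −0.49, adjusted p = 0.102, edgeR). Tab2 and Tab3 read the ubiquitin chains made by TRAF6, and Tab3 had a log2FC of −0.92 (adjusted p = 0.086 in edgeR and 0.029 in DESeq2). Tab1, which activates TAK1 directly, was higher in both INK128 libraries, with a log2FC of 0.54 (SE 0.19, adjusted p = 0.123, edgeR). Ripk1, the scaffold kinase that also serves tumor necrosis factor and TRIF signals, had one of −0.69 (adjusted p = 0.0712 in edgeR and 0.0167 in DESeq2).

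In the IKK group all 5 fold changes were negative and none passed the edgeR test (2 with an unadjusted p below 0.05, which 18.7% of all genes had on the lower side, and 1, Ikbkg, called lower by DESeq2, against 15.1% of all genes). Ikbkg encodes NEMO, the regulatory subunit. It was at 33.7 and 31.2 CPM against 49.6 and 56.7 CPM, without overlap (log2FC −0.71, SE 0.19, adjusted p = 0.0745 in edgeR). Ikbkb, the catalytic subunit of the canonical pathway, was at 33.5 and 41.4 CPM against 43.8 and 42.0 CPM, where INK128 replicate 2 and control replicate 3 were almost equal. The log2FC of −0.20 turned to 0.53 with offsets for exon length, on an annotated exon length of 19078 bases. Chuk had one of −0.60, which was −0.07 without control replicate 3 and −0.98, a call in edgeR (adjusted p = 0.00166), without control replicate 1. Tbk1 and Ikbke, the kinases of the interferon branch, had log2FC values of −0.54 and −0.09, and that of Ikbke turned to 0.66 without control replicate 3, 0.19 without INK128 replicate 1, 0.29 with length offsets and 0.01 with limma voom.

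**Figure D3:**
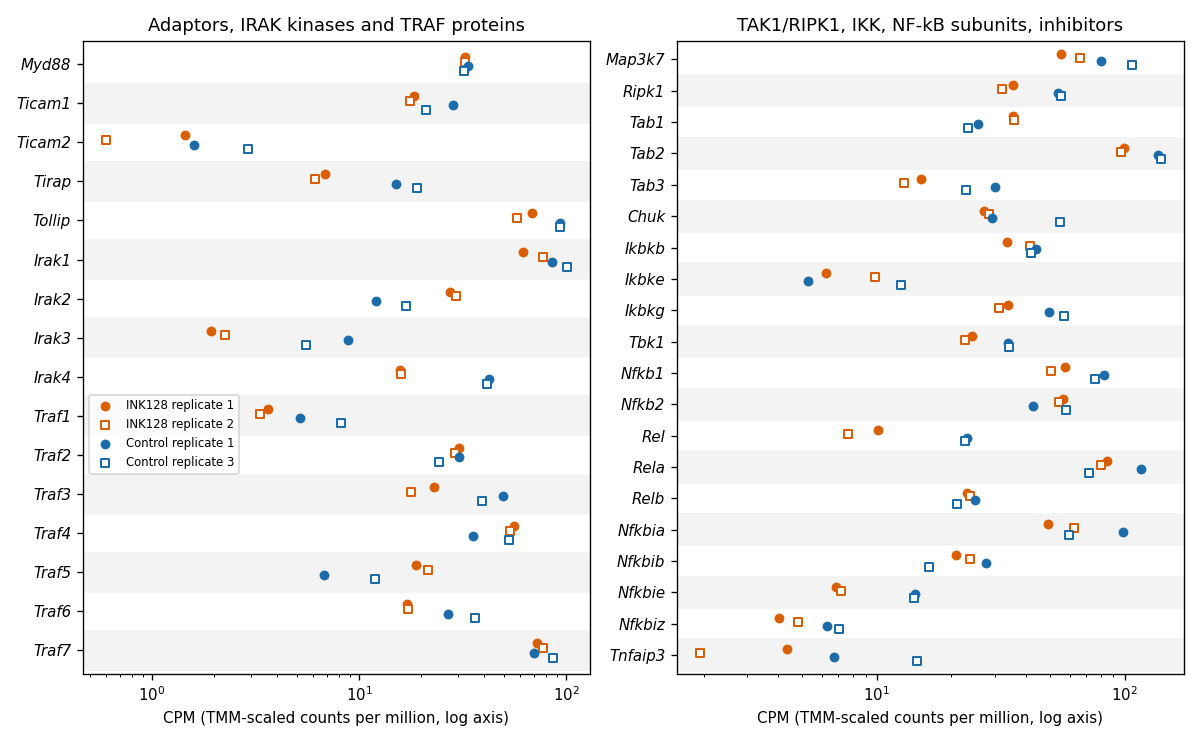
CPM of the 36 members downstream of the receptors in each library (log axis; orange, INK128; blue, control; symbols as for the receptors). Irak4 and Nfkbie show wide gaps with tight pairs, Tirap and Rel wide gaps with looser pairs, Irak2 and Traf5 the opposite order, and Myd88 4 points on top of each other.

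Among the NF-kB subunits, Rel had the largest fold change, though it passed the filter of 10 CPM only through the controls. Rel (c-Rel, the subunit of lymphoid and myeloid cells), on chromosome 11 from 23736847 to 23770970 (minus strand), was at 10.1 and 7.68 CPM against 23.2 and 22.8 CPM. Its log2FC was −1.37 (SE 0.28, adjusted p = 0.0542 in edgeR and 0.00118 in DESeq2), and −1.06 with length offsets. Rela, the widely expressed p65 subunit, was at 84.5 and 80.5 CPM against 116.8 and 71.7 CPM. Here the controls enclosed the INK128 libraries, and the log2FC of −0.19 was 0.20 without control replicate 1. Nfkb1, the precursor of p50, was at 57.3 and 50.4 CPM against 82.4 and 75.7 CPM (log2FC −0.55, adjusted p = 0.101, edgeR), and its log2FC was −0.02 with length offsets. Nfkb2 and Relb, the pair of the non-canonical pathway, overlapped between the groups, with log2FC values of 0.14 and 0.03. Per kilobase, Rela was the most abundant subunit (68.7 TPM) and Rel the least (5.40 TPM).

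Several of the inhibitors, Nfkbia and Tnfaip3 among them, are themselves NF-kB targets. Nfkbia (IkB alpha) had the highest level per kilobase of all members (101.7 TPM). It was at 48.8 and 62.7 CPM against 98.6 and 59.8 CPM, so that control replicate 1 alone was high. The value of log2FC, −0.51, was −0.10 without that library and −0.82, a call in edgeR (adjusted p = 0.00545), without control replicate 3. With length offsets it was −1.13. Nfkbie (IkB epsilon) was at 6.82 and 7.18 CPM against 14.3 and 14.2 CPM, with the replicates nearly equal in each group. The log2FC was −1.02 (SE 0.27, adjusted p = 0.0759 in edgeR and 0.0217 in DESeq2). Nfkbie passed the filter of 10 CPM only through the controls. Nfkbib (IkB beta) was at 20.8 and 23.8 CPM against 27.6 and 16.2 CPM, with a log2FC of 0.03 whose sign turned under several settings. Tnfaip3 encodes A20, a deubiquitinase that ends the signal. It was at 4.35 and 1.93 CPM against 6.69 and 14.5 CPM (log2FC −1.70, adjusted p = 0.144, edgeR). This was −2.40 without INK128 replicate 1 and −1.24 without INK128 replicate 2. It was −2.16 without control replicate 1 and −1.04 without control replicate 3. Nfkbiz had a log2FC of −0.54. Of the 4 binding partners, 0 were lower and 1, Irak1bp1, was higher without overlap (34% and 34.5% of all genes above 10 CPM). Irak1bp1 was at 17.3 and 17.7 CPM against 14.7 and 9.07 CPM (log2FC 0.56, adjusted p = 0.287, edgeR), and Traf3ip2 at 24.8 and 26.5 CPM against 26.7 and 23.4 CPM. The Irak1bp1 log2FC was 0.95 without control replicate 1 and 0.25 without control replicate 3.

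The balance of related members within a library was computed from counts per kilobase of exon. Such a ratio does not depend on scaling between libraries. It does depend on the trend with exon length, given below, where the genes of a pair differ in length. Tab1 has 3360 exon bases and Tab3 6639, and Traf5 has 4566 against 7350 for Traf3 and 7883 for Traf6. The pairs were chosen after the values had been seen, so no test is given. Irak2 stood to Irak4 as 1.98 and 2.09 in the INK128-treated rOvaries and as 0.322 and 0.462 in controls. Irak4 was thus the more abundant of the pair in controls and Irak2 in the treated rOvaries. The ratio of Traf5 to Traf3 was 1.32 and 1.94 against 0.218 and 0.491, and that of Traf5 to Traf6 was 1.91 and 2.15 against 0.434 and 0.563. Both crossed 1 in the same way. Tab1 to Tab3 was 4.68 and 5.50 against 1.69 and 2, and Tirap to Myd88 0.111 and 0.098 against 0.235 and 0.309. Rel to Relb was 0.229 and 0.168 against 0.486 and 0.563, so that c-Rel transcripts were the rarer of that pair in every library and rarest with INK128.

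**Figure D4:**
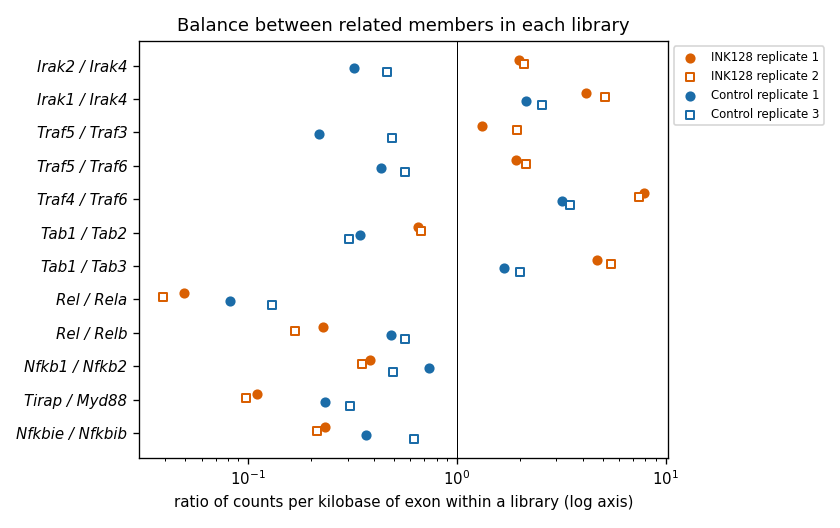
Ratio of 12 pairs of related members within each library, as counts per kilobase of exon (log axis; orange, INK128; blue, control; the line marks 1). For Irak2 to Irak4, Traf5 to Traf3 and Traf5 to Traf6 the INK128 libraries lie above 1 and the controls below it.

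Other genes of the pathway, in 4 lists of 84 genes, gave 2 calls in edgeR, both lower and above 10 CPM, and 0 higher (3.19% and 3.18% of all genes). Of these genes 57 had a mean above 10 CPM and 19 one of 1 to 10 CPM. DESeq2 called 12 lower and 2 higher, against 15.1% and 13.6% of all genes above 10 CPM and 13.6% and 10.2% of those above 1 CPM, so that the lower count is near the background. Map3k3, a kinase that can activate IKK, was at 17.9 and 17.4 CPM against 48.1 and 67.3 CPM. It fell by 1.71 on the log2 scale (adjusted p = 0.0464, edgeR). Itch, a ubiquitin ligase that works with A20, was at 51.4 and 47.3 CPM against 92.4 and 99.4 CPM. It fell by 0.96 (adjusted p = 0.0487, edgeR). Both calls were absent when either INK128 library was left out, as were those of all other genes. Among the negative regulators, Cyld and N4bp1 had log2FC values of −1.11 and −0.94 (adjusted p = 0.0526 and 0.0553, edgeR). On the other side of that list Commd1, named after its values had been seen, had 0.93 (adjusted p = 0.0507 in edgeR and 0.000399 in DESeq2, which called it higher). Among co-receptors, Cd180 was at 2.36 and 2.39 CPM against 6.73 and 11.4 CPM (log2FC −1.88, adjusted p = 0.072, edgeR). The medians, for genes above 10 CPM, were 0.03 for 7 co-receptors and chaperones, −0.18 for 26 further transducers and −0.46 for 12 negative regulators, beside −0.03 for all genes.

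The NF-kB target genes above 10 CPM had a median log2FC of −0.63, and 11 of these 12 were negative. edgeR called 0 of them and DESeq2 2 lower, Lcn2 and Icam1 (16.7%, near the background of 15.1%). Lcn2, and also Nos2, passed the filter of 10 CPM only through the controls. Icam1, an adhesion molecule, was at 30.1 and 29.0 CPM against 42.6 and 48.9 CPM (log2FC −0.63, adjusted p = 0.0943, edgeR). It was named after its values had been seen. Saa3 had the largest fold change of the target list (log2FC −2.72, adjusted p = 0.215, edgeR), at a mean of 2.49 CPM. It was at 0.429 and 0.828 CPM against 0.62 and 8.10 CPM, so that control replicate 3 alone was high. For Lcn2 and Nos2 control replicate 1 alone was high. Lcn2, an iron-binding acute phase protein, was at 9.82 and 10.1 CPM against 107.5 and 13.8 CPM, and Nos2, the inducible nitric oxide synthase, at 5.80 and 3.86 CPM against 27.9 and 6.83 CPM. Bcl3, an atypical IkB protein, followed the same pattern, at 7.09 and 9.89 CPM against 39.4 and 10.8 CPM. The cytokine genes Il6 and Tnf had few counts. Il6 gave 3 and 0 counts against 0 and 11, and Tnf 1 and 8 against 7 and 26, too few to show a difference at this depth.

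**Figure D5:**
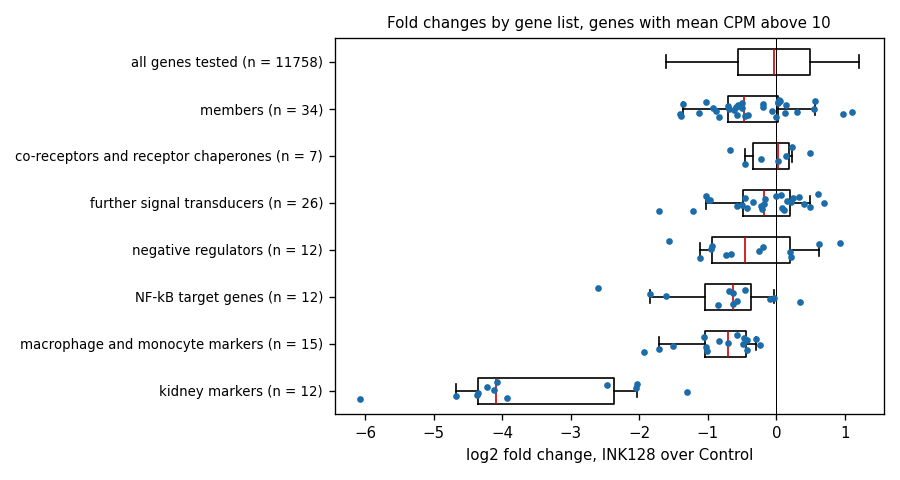
Log2FC values, INK128 over control, of genes with a mean above 10 CPM in each list (blue points, genes; boxes, quartiles with the median in red; whiskers, the 5th to 95th percentile). The median is −0.48 for the 34 members and −0.63 for the 12 NF-kB targets, beside −0.03 for all 11758 genes, and the kidney markers lie far to the left.

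Longer genes had lower fold changes throughout these libraries. Across 5 equal groups of genes by exon length, the median log2FC of all genes was lower at each step to longer genes. The median exon length was 4822.5 bases for the 34 members and 4468 bases for all genes tested. From the shortest group to the longest, the medians of all genes were 0.59, 0.24, −0.03, −0.27 and −0.54. Those of the members were 0.03 (3 members), 0.01 (8), −0.48 (12), −0.77 (6) and −0.69 (5). With offsets that remove the trend, the median of the members was −0.39 beside −0.04 for all genes.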

How the data were processed

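Sequencing of RNA from 2 rOvaries with INK128 and 2 without was analysed. Groups and replicate numbers came from the sample titles. Per the paper's methods, the authors used Trimmomatic for trimming, HISAT2 for alignment to mm10 and featureCounts for counting over RefGene. Versions are not given in the sources used here. The deposited values were raw counts per gene symbol, not normalized and not pooled. Total counts were 19130209 to 23029089, and a floor of 3 counts limits what a 0 can show.

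CPM used TMM factors. Group differences were tested by the quasi-likelihood method of edgeR 4.0.16 in R 4.3.3, with p-values adjusted (Benjamini-Hochberg) over 11758 genes of mean CPM above 10. Members between 1 and 10 CPM came from the same test on the 17631 genes above 1 CPM. Calls needed adjusted p under 0.05 and over 1.5-fold. TPM and positions used the exons of GENCODE release M21, matched by symbol for 53447 of 54021 symbols. Values by library are given for members called, those with a log2 fold change over 1 in size and the 2 with the highest mean CPM in each role. For the other pathway lists, values are given for called genes and at most 3 more of the largest size. Names outside this rule were chosen after their values were seen. The members and lists were chosen with earlier results of these data known. The tests were also run on simulated data, drawn from a shared mean per gene with planted changes. Those data did not model the differences in cell content between the controls, and no outcome of that run is used here. Alternatives were DESeq2 1.42.0, limma 3.58.1 (voom), other size factors, length offsets, other filters, an adjusted p below 0.1 and leaving out each library.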

Additional observations from a re-analysis of the deposited data

How the results depend on the processing

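No paired analysis was possible because the groups share only replicate number 1. With 374 genes called higher and 375 lower in the edgeR test, DESeq2 called 1595 and 1772, an adjusted p below 0.1 gave 1540 and 1591, no filter gave 1152 and 1953, and limma voom, length offsets and a filter of 1 CPM gave 0 and 0. Library totals gave 290 higher and 580 lower. Leaving out 1 library gave 0 to 2664 higher and 0 to 2723 lower. At an unadjusted p below 0.05, edgeR gave 2076 higher and 2200 lower genes. Among the 34 members above 10 CPM, those called lower, 1 in the edgeR test, were 9 with DESeq2, 9 with an adjusted p below 0.1, 4 with no filter, 0 with voom, length offsets or a filter of 1 CPM, and 0 to 12 without 1 library. Those called higher, 0 in that test, were 1 with DESeq2, 1 with an adjusted p below 0.1 and 0 to 4 without 1 library. Among all 51 tested members DESeq2 called 14 lower and edgeR with no filter 7.

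The median log2 fold change of the members, −0.48, was −0.60 with library totals, −0.39 with length offsets, −0.42 with a filter of 1 CPM, −0.44 with no filter, and −0.47 to −0.35 without 1 library. Library totals moved the median of all genes to −0.15. The members minus all genes came to −0.45 both with that scaling and with TMM.

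Over the 34 members the rule for named genes gave and 362 comparisons with an alternative, 291 kept direction and side of the threshold, 51 passed it newly, 5 lost it (all Irak4) and 15 changed sign, all of them in members with a log2 fold change under 0.2 in size. Myd88 was 0.0449 with a filter of 1 CPM, 0.0314 with no filter and −0.0366 to 0.0203 without 1 library. Traf7 was 0.0939 with length offsets and −0.208 to 0.0926 without 1 library. Ikbkb was 0.531 with length offsets. Rela was −0.501 to 0.203 without 1 library. Nfkbib was −0.0981 with library totals, −0.434 with length offsets and −0.306 to 0.458 without 1 library. Traf3ip2 was −0.0907 with library totals, −0.0929 with length offsets and −0.0612 to 0.131 without 1 library. Myd88 was also −0.381 with length offsets and −0.130 with library totals, without a change of sign. Among all 51 tested members 13 changed sign at least once. The 7 outside the rule were Traf2, Nfkb2, Relb, Traf3ip1, Traf3ip3, Ikbke (−0.584 to 0.661) and Tlr6 (−1.06 to 0.734), and of these Tlr6 alone had a reported value over 0.2 in size. The causes were not tested. Tlr5, Tlr8, Tlr9 and Tlr11 had 10 counts or fewer in each INK128 library.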
